A study of Bos taurus with 6 samples.

Results

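In bovine DNA, 11986 autosomal CpGs were methylated in sperm and nearly unmethylated in both blood monocytes and skin fibroblasts. They were selected on their measured methylation. A CpG was a member when it was covered by 5 to 500 reads in all 6 libraries, when more than 80% of the sperm reads were methylated, and when fewer than 20% of the reads were methylated in monocytes and in fibroblasts, with the reads of the 2 libraries of a cell type summed. The members were 0.777% of the 1542060 autosomal CpGs with this coverage. "Methylated only in sperm" therefore refers to these 3 cell types, and other tissues were not analysed here.

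Reduced representation bisulphite sequencing (RRBS) was used to ask how DNA methylation differs between sperm and somatic cells of cattle. In this assay, genomic DNA is cut at CCGG sites by MspI, short fragments are kept, and bisulphite turns unmethylated cytosines into bases read as T. There were 2 libraries per cell type, each from a different Holstein animal, and no treatment was compared. The coverage summed over the CpGs listed was 45884839 to 78890776 per library, in which a read counts once at each CpG it covers. The median coverage of a CpG was 9 to 14 reads. Sperm DNA came from commercial frozen semen straws of bulls. Monocytes were purified from cow blood with beads against CD14, a surface marker of monocytes, and fibroblasts were grown in culture from cow ear skin. Sex therefore cannot be told apart from sperm against somatic cells, nor culture from fibroblasts. PCR used 14 cycles for sperm and fibroblasts and 12 for monocytes, so that the cycle number cannot be told apart from monocytes. RRBS reads no expression marker, so that the purity of each cell type could not be checked here.

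CpG methylation is erased in primordial germ cells and laid down again before meiosis in the male germ line, mainly by DNMT3A with its cofactor DNMT3L. Most isolated CpGs end up methylated in both sperm and somatic cells, and most CpGs of dense CpG islands end up unmethylated in both. Methylation present in sperm and absent from somatic cells is found at sequences that are bound by regulatory factors in somatic tissues, and after fertilisation most sperm methylation is removed again.

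The members were close to fully methylated in the sperm of both bulls. The mean methylation over members was 96.6% in sperm replicate 1 and 95.7% in sperm replicate 2. It was 4.83% and 4.06% in monocyte replicates 1 and 2, and 5.80% and 6.02% in the corresponding fibroblast replicates. As the mean of the libraries, this was 96.1% ± 0.637 (SD, n = 2) in sperm, 4.45% ± 0.546 in monocytes and 5.91% ± 0.155 in fibroblasts. In sperm, 64.3% of members in replicate 1 and 56.5% in replicate 2 had only methylated reads. Conversely, monocytes had no methylated read at 55.01% and 64.6% of members, and fibroblasts had none at 48.7% and 43.5%. These levels follow from how the members were chosen and are given as a description. The same libraries had means of 46.1% to 54.0% over all autosomal CpGs tested.

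**Figure D1:**
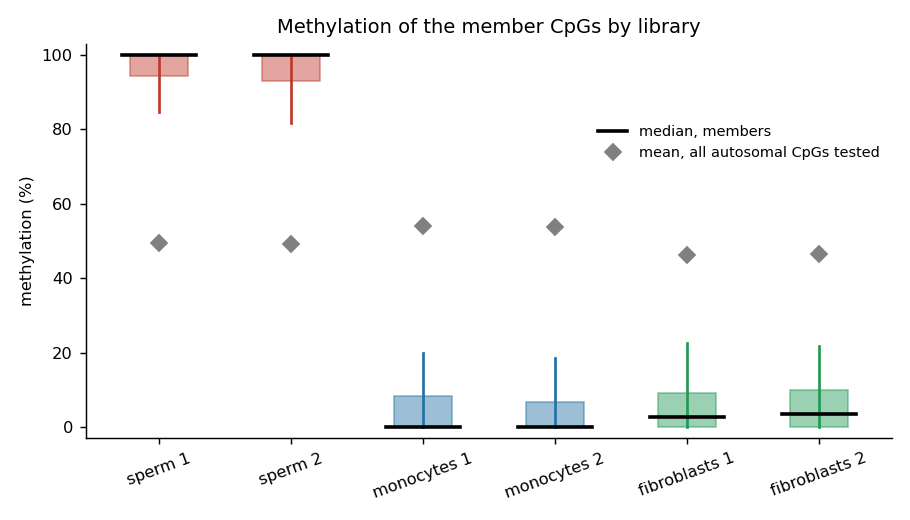
Methylation in percent (vertical axis) of the 11986 members in each of the 6 libraries (horizontal axis). Boxes span the 25th to the 75th percentile, thin lines the 5th to the 95th percentile, black bars are medians, and grey diamonds are the means over all autosomal CpGs tested. The member medians were 100% in both sperm libraries and at most 3.33% in the somatic libraries, while the diamonds all lay between 46.1% and 54.0%.

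The limits cut through a continuum on the somatic side. There were 939 members with 15 to 20% methylation in monocytes, and 1009 CpGs just outside with 20 to 25% that met the other limits. The corresponding numbers were 1331 inside and 1339 outside for fibroblasts. At the sperm limit, 490 members had more than 80% and up to 85% methylation, and 496 CpGs with 75 to 80% were just outside. With the reads of the 2 libraries summed, the lowest sperm value of a member was 80.2%, and the highest values were 19.7% in monocytes and 19.8% in fibroblasts. These extremes are bounded by the limits. In single libraries members could lie outside them. The lowest value of a member was 40.0% in both sperm libraries, and the highest was at least 44.4% in each somatic library. Of the 11986 members, 8562 (71.4%) met the limits in every library.

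Choosing the CpGs in one set of animals and reading them in the other gave a measure that the choice did not use. The same limits in the 3 replicate 1 libraries picked 12796 CpGs. Of these, 8562 met all 3 limits in the replicate 2 libraries, or 66.9% (95% Wilson interval 66.1 to 67.7%, counting error only), whereas 0.805% of all autosomal CpGs tested did so. The interval takes the CpGs as independent, but neighbouring CpGs can be read from the same fragment, so that it can be too narrow. In the replicate 2 libraries, 89.4% of the 12796 met the limit in sperm, 89.8% in monocytes and 82.3% in fibroblasts. In the reverse direction, 69.0% of 12411 CpGs met all limits. The median of the 12796 CpGs in the replicate 2 libraries was 100% for sperm, 0% for monocytes and 4.17% for fibroblasts.

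The members were compared with the sets that the same limits give for other cell types. The mirror set, unmethylated in sperm and methylated in both somatic cell types, held 55942 CpGs (3.63%). There were 5294 CpGs methylated only in monocytes (0.343%) and 2716 methylated only in fibroblasts (0.176%). Of the 563100 CpGs below 20% in both somatic cell types, 2.13% were members, and of the 724317 CpGs above 80% in sperm, 1.65% were members.

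The members were joined into regions by their position along the genome, a property on which they were not chosen. Joined at gaps of at most 1000 bp, they formed 3700 regions, of which 740 had at least 5 members. These 740 regions held 6737 members (56.2%), occurred on all 29 autosomes and had a median length of 225 bp, with the longest at 2377 bp. A further 1633 members (13.6%) stood alone. The regions were smaller than those of the mirror set, in which 84.7% of CpGs were in regions of at least 5 and 3.85% stood alone. Regions of 20 or more held 8.43% of members and 42.1% of the mirror set. In the sets methylated only in monocytes and only in fibroblasts, 63.2% and 70.4% of CpGs were in regions of at least 5. Members thus had the smallest share of these sets. All sets were drawn from the same CpGs tested, which had a median of 10 other CpGs listed within 100 bp. The share for CpGs drawn at random from those tested was not computed. Whether members cluster more than the CpGs that RRBS reads was therefore not tested.

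**Figure D2:**
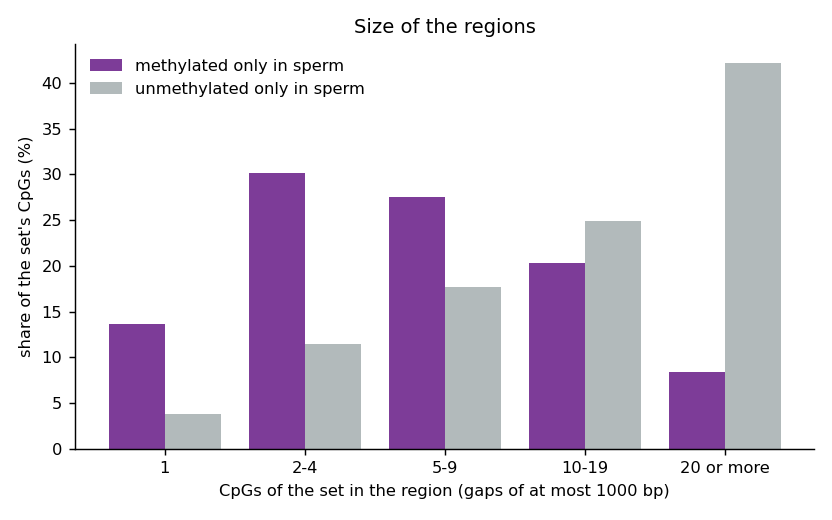
Share of each set's CpGs in percent (vertical axis) by the number of CpGs of the set in the region (horizontal axis), for the 11986 members and the 55942 CpGs of the mirror set. Bars start at 0. Members were most often in regions of 2 to 4 (30.2%), and mirror CpGs in regions of 20 or more (42.1%).

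Within the 740 regions, most CpGs tested were members. They held 8650 CpGs covered in all libraries, of which 77.9% were members, and 310 regions consisted of members only. The mean over all CpGs tested, members or not, was above 80% in both sperm libraries and below 20% in all 4 somatic libraries in 583 of the 740 regions (78.8%). Such region means, here and below, rest mostly on members. They therefore follow largely from how the members were chosen and are given as a description. Fibroblasts were the cell type in which a region most often missed its limit, since 630 regions were below 20% in both fibroblast libraries, 691 in both monocyte libraries, and 724 were above 80% in both sperm libraries. Both fibroblast libraries were higher than both monocyte libraries in 325 regions, and by more than 10 points in 71. The opposite order was found in 170 regions, and by more than 10 points in 14.

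The largest region had 48 members among 51 CpGs tested, at chromosome 17, positions 74834556 to 74835727 of the UMD3.1 build. Its mean methylation was 98.03% and 96.9% in sperm, with monocytes at 2.13% and 1.36% and fibroblasts at 4.59% and 7.99%. All CpGs of the region kept sperm values of at least 80% in both bulls, and the highest single somatic value was 40.0%. Outside it, sperm stayed methylated and the somatic cells changed. At 976 to 1838 bp before its first member, 45 CpGs averaged 98.5% in both sperm libraries, 94.2% and 92.5% in monocytes, and 79.0% and 85.6% in fibroblasts. Further out, at 2306 to 2436 bp before it, the somatic cell types parted. There 9 CpGs averaged 96.8% and 97.1% in sperm, 91.0% and 83.0% in monocytes, but 28.9% and 35.9% in fibroblasts. At 960 to 1544 bp after its last member, 24 CpGs averaged 96.6% and 98.5% in sperm, with monocytes at 52.6% and 54.9% and fibroblasts at 58.0% and 67.5%. At 1918 to 2391 bp after it, the somatic averages over 23 CpGs were again low, at 7.85% and 6.27% in monocytes and 18.3% and 26.2% in fibroblasts. This stretch held members of a neighbouring region, counted apart because the gap between members exceeded 1000 bp.

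The second region, at chromosome 12, positions 90459814 to 90460450, was shorter and denser. All 46 CpGs tested in it were members. The means were 98.5% and 97.9% in sperm, with monocytes at 2.18% and 2.74% and fibroblasts at 3.68% and 1.43%. No CpG was below 85.7% in a sperm library or above 28.6% in a somatic library.

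The third region differed between the bulls. At chromosome 18, positions 55536156 to 55537411, it had 44 members among 47 CpGs tested. Its mean was 97.4% in sperm replicate 1 and 82.2% in sperm replicate 2, while monocytes were at 1.72% and 2.21% and fibroblasts at 3.70% and 5.25%. The sperm libraries differed by at least 25 points at 13 of the 44 members, of which 12 were higher in replicate 1. Over these 13 members, the means were 97.4% and 72.9% at median coverages of 19 and 20 reads. The 6 CpGs within 34 to 315 bp before the region had the same order in sperm (98.6% and 81.6%), with monocytes at 63.2% and 62.8% and fibroblasts at 55.0% and 50.0%. Further out, at 1439 to 2397 bp before it, 28 CpGs were low in all 6 libraries, at 4.81% and 3.04% in sperm and at most 0.480% in the somatic libraries. With 1 library per bull, a difference between the bulls cannot be told apart from one between the straws or libraries.

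**Figure D3:**
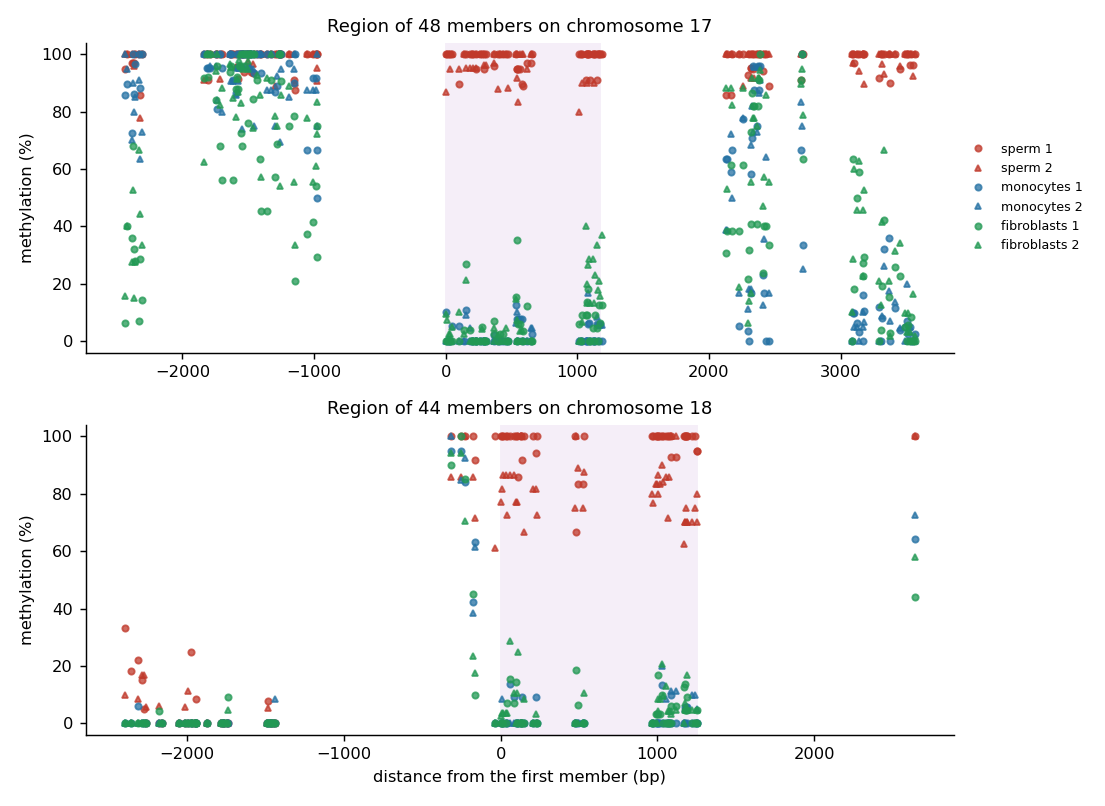
Methylation in percent (vertical axis) of each CpG tested against its distance in bp from the first member (horizontal axis), in the largest and the third largest region and up to 2500 bp around them, with circles for replicate 1 and triangles for replicate 2. The region from first to last member is shaded. On chromosome 17 both sperm libraries averaged at least 96.6% inside the region and in every stretch around it, and the somatic libraries averaged 1.36% to 7.99% inside the shading. On chromosome 18 sperm replicate 2 averaged 82.2% against 97.4% in replicate 1.

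The other regions among the 10 with the most members had 30 to 38 each. A region of 38 members among 40 CpGs tested lay at chromosome 11, positions 104470657 to 104472939. It averaged 97.9% and 98.03% in sperm, and here monocytes (6.92% and 4.39%) were above fibroblasts (1.51% and 2.35%). Nearby, at positions 103665648 to 103666540, a region of 31 members averaged 96.8% and 93.6% in sperm and at most 4.09% in any somatic library. On chromosome 14 there were also 2 such regions. The one at positions 2886115 to 2886692 had 35 members and averaged 97.9% in both sperm libraries, 5.20% and 5.34% in monocytes, and 3.15% and 1.75% in fibroblasts. The one at positions 2055064 to 2056105 had 30 members and wider spread, with 95.7% and 89.9% in sperm and 0.831% and 10.6% in fibroblasts. One of its libraries had a median coverage of only 7 reads.

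The remaining 3 of the 10 were at chromosome 5, positions 113017492 to 113018660 (34 members), chromosome 25, positions 41308459 to 41309240 (33 members), and chromosome 3, positions 121293635 to 121295294 (33 members). Each averaged 96.9% to 98.6% in both sperm libraries and at most 8.02% in the somatic libraries. The region on chromosome 25 was the lowest in fibroblasts of these, at 0.492% and 0.690%. Among regions in which every CpG tested was a member, the next after that on chromosome 12 was at chromosome 29, positions 49877544 to 49877975. Its 25 members averaged 97.5% and 97.3% in sperm, and monocytes were at 0.174% and 0%, fibroblasts at 1.69% and 1.42%. The others were at chromosome 17, positions 67474509 to 67475526 (23 members), chromosome 5, positions 117067720 to 117068158 (21 members), and chromosome 25, positions 1699208 to 1699966 (21 members). In these 3 the sperm averages lay between 96.7% and 99.4%. Single CpGs tested within the regions could depart from these averages. Over the 7 regions with 30 to 38 members, the lowest value of a CpG in a sperm library ran from 0% (chromosome 11, from 103665648) to 90%, and the highest in a somatic library from 41.7% to 69.6%. On chromosome 5, from 113017492, these extremes were 47.4% and 50.0%. On chromosome 18 they were 62.5% and 28.6%. The genes at these places were not analysed here.

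Differences between animals of one cell type were seldom seen at members. The bulls differed by at least 25 points at 240 members (2.00%, against 2.48% of all autosomal CpGs tested), and sperm replicate 1 was the higher one at 155 of them. The monocyte libraries differed in this way at 267 members (2.23% against 3.55%), and the fibroblast libraries at 437 (3.65% against 9.67%). The limits themselves keep replicates close, so that these shares are a description. The 240 members lay in 186 regions. Outside chromosome 18, the 2 regions with the most of them each had 7 among 9 members, and they were chosen after their values were seen. In the one at chromosome 5, positions 120808000 to 120808297, the 7 members averaged 71.4% in sperm replicate 1 and 98.3% in replicate 2. In the one at chromosome 16, positions 50630088 to 50631012, they averaged 98.2% and 62.6%, with a median coverage of 7 reads in replicate 2.

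CpGs next to members that were not members themselves were also higher in sperm. All autosomal CpGs were tested for higher methylation in sperm than in monocytes and in fibroblasts, by logistic regression on the summed reads and its likelihood-ratio test. A CpG was called when both comparisons gave a Benjamini-Hochberg adjusted p under 0.01 and 25 points or more of difference. Of all autosomal CpGs tested, 3.58% were called in this direction. All 11986 members were called, but they were chosen on the same contrast, and nothing is read from this count. Of the 11182 other CpGs within 100 bp of a member, 8202 were called (73.4%). At 291 to 1000 bp, farther than the 290 bp that 1 RRBS fragment can span, 12.2% of 17271 CpGs were called, and beyond 1000 bp 2.04% were. The test pooled the libraries of a cell type and therefore does not include the spread between animals. With limma, which includes it, 52.7% of the CpGs within 100 bp were called against 2.34% of all.

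A second set of cytosines, taken up after the data had been seen, had no part in the choice of members. Some positions are listed at one base in some libraries and at the next base in others. They were taken as the C and the G of one CpG and joined, which rests on no stated step of the processing and could not be checked without a UMD3.1 sequence. After joining, 173058 autosomal CpGs were covered in all 6 libraries, and 1947 of them lay within 100 bp of a member. The sperm libraries averaged 94.98% and 94.0% over these 1947, the monocyte libraries 15.8% and 14.9%, and the fibroblast libraries 15.9% and 15.6%. Each sperm library was thus far above all 4 somatic libraries, and the group means differed by 78.9 points (p = 0.0667 in an exact two-sided permutation test over libraries, the smallest that 2 against 4 libraries can give). Of the 1947, 1062 (54.5%) passed the limits for members, against 0.310% of the joined CpGs beyond 1000 bp.

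The CpGs that missed the coverage rule overlap with the joined CpGs. Each position joined above misses the rule by itself, so that these sets share reads and are not independent. Within 100 bp of a member, 15775 listed CpGs missed the rule. Their share of methylated reads was 94.6% and 93.8% in sperm, 15.5% and 14.5% in monocytes, and 16.8% in both fibroblast libraries. The difference was 78.3 points (exact two-sided permutation test, p = 0.0667, again the smallest possible). Over all 3201283 autosomal CpGs that missed the rule, sperm was 7.73 points below the somatic mean, or -7.73 as a signed difference (p = 0.333 in the same exact test). Cytosines this close to a member can lie on the same MspI fragment, and so be read from the same molecules, as can the joined CpGs.

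Distance separated the cell types. In the joined CpGs, sperm methylation stayed at a mean of 93.8% to 94.9% from 1 to 290 bp, and was 90.7% at 291 to 500 bp and 77.5% at 501 to 1000 bp. Somatic methylation was higher with each step over the same distances. In monocytes it was 5.75% at 1 to 20 bp, 24.0% at 51 to 100 bp, 52.5% at 201 to 290 bp and 60.4% at 501 to 1000 bp. In fibroblasts it was 7.86%, 23.2%, 43.3% and 51.5% at these distances. In every class of joined CpGs up to 10000 bp both sperm libraries were above all 4 somatic libraries. In the 7 classes up to 1000 bp the exact permutation p was 0.0667, the smallest possible, so that none can pass 0.05, adjusted or not. The difference was 14.2 points at 1001 to 2000 bp, 9.37 points at 2001 to 5000 bp and 7.68 points at 5001 to 10000 bp (p = 0.133 in each by the exact test). Beyond 10000 bp it was 0.764 points (exact test, p = 0.800), and both monocyte libraries were above both sperm libraries. Among the CpGs tested that are not members, sperm was above all 4 somatic libraries only up to 2000 bp. At 2001 to 5000 bp the sperm libraries (61.4% and 61.0%) were below both monocyte libraries (62.4% and 62.1%). At 5001 to 10000 bp they were at 61.7% and 61.2%, against 63.5% and 63.4% in monocytes.

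The order of the somatic cell types changed with distance. In the joined CpGs at 1 to 20 bp, both fibroblast libraries (8.04% and 7.68%) were above both monocyte libraries (5.84% and 5.65%). At 21 to 50 bp the libraries of the 2 cell types overlapped, and from 51 bp on both monocyte libraries were above both fibroblast libraries in every class. Among the CpGs tested that are not members, both fibroblast libraries were the higher ones up to 100 bp, with 43.7% and 43.9% against 38.5% and 37.9% at 51 to 100 bp, and both monocyte libraries beyond 100 bp. With 2 libraries against 2 no exact test can pass 0.05, and this order was not tested. Over the 149144 joined CpGs beyond 10000 bp, monocytes averaged 61.3% and fibroblasts 47.8%, so that the lower fibroblast level away from members was also that of the genome at large.

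**Figure D4:**
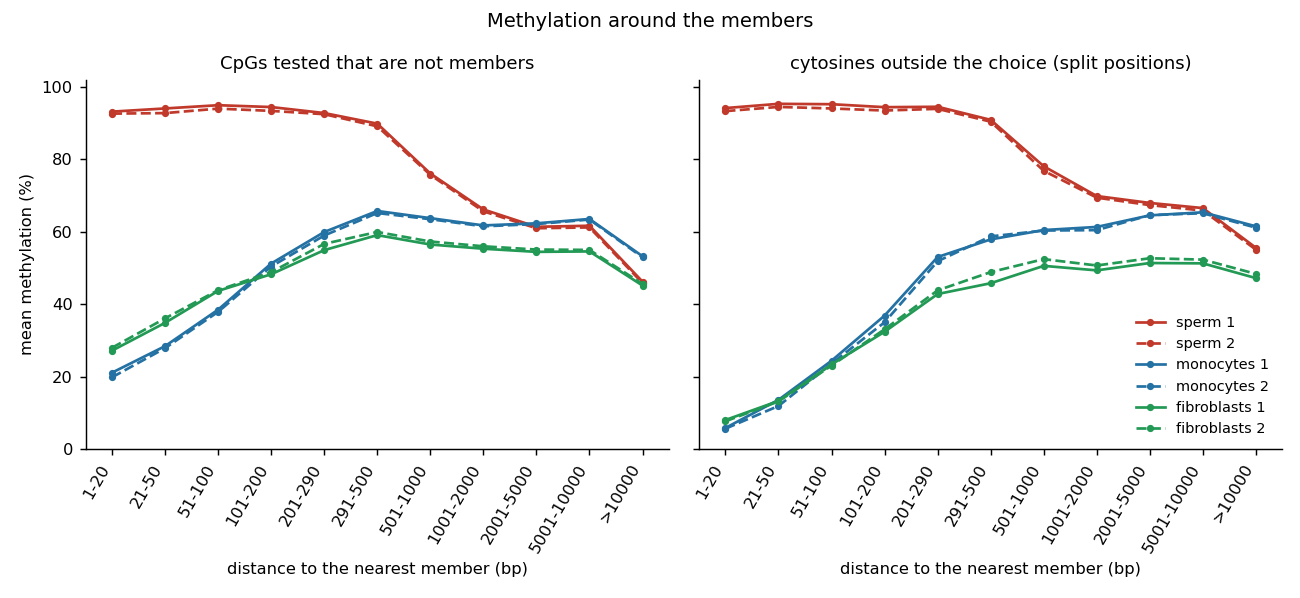
Mean methylation in percent (vertical axis) by distance in bp to the nearest member (horizontal axis, classes of unequal width) in each library, for CpGs tested that are not members (left) and for joined CpGs that had no part in the choice (right). Both sperm libraries lay above 92% up to 290 bp in both panels. In the right panel monocytes went from 5.75% to 52.5% and fibroblasts from 7.86% to 43.3% between the first and the fifth class. On the left, CpGs passing the limits have been removed as members, which raises the somatic means at short distances.

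The neighbours of single members had intermediate somatic methylation on average, and the spread over single neighbours was not examined. Of the 1633 single members, 1333 had another CpG tested within 100 bp. These neighbours, none of which met the limits, averaged 94.8% and 93.6% in sperm, with monocytes at 35.7% and 35.4% and fibroblasts at 42.5% and 42.2%. The neighbours of members in regions of at least 5 averaged 93.4% and 92.7% in sperm, but only 25.2% and 23.8% in monocytes and 28.4% and 30.5% in fibroblasts. The single members themselves had medians of 96.7% (sperm), 5.0% (monocytes) and 8.0% (fibroblasts), against 97.6%, 1.61% and 2.99% in regions of at least 5. The median coverage of single members was 13 to 23 reads across libraries, and that of members in these regions 15 to 27.

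Members lay where few CpGs were listed. The median number of other CpGs listed in any library within 100 bp was 6 for members, 10 for all autosomal CpGs tested, 12 for the mirror set and 15 for CpGs below 20% in all 3 cell types. It was 7 for CpGs above 80% in all 3 cell types, close to that of members. Only 4.51% of members had 15 or more listed CpGs around them, against 25.4% of all CpGs tested and 55.5% of those low in all 3 cell types. Members in regions of at least 5 had a median of 8, and single members of 4. The count covers the CpGs that RRBS read, not all CpGs of the genome. It is a count of listed positions, so that a CpG listed at neighbouring bases in different libraries can count more than once.

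Among CpGs below 20% in both somatic cell types, the share that were members was smaller at each step up in this density. It was 29.3% of 3833 CpGs with at most 2 others listed within 100 bp, 16.6% with 3 to 5, 6.77% with 6 to 8, 2.75% with 9 to 11 and 1.02% with 12 to 14. It was 0.302% with 15 to 19 and 0.0257% of 136244 CpGs with 20 or more. At a coverage of at least 10 reads in every library, the first share was 30.3% and the last 0.0272%. Thus a CpG that was low in both somatic cell types was methylated in sperm far more often in sparse than in dense surroundings. Such low CpGs were themselves few in sparse surroundings (3833 of 100492 tested) and usual in the densest (136244 of 155638). Of all CpGs tested, members were 1.12% with at most 2 others listed, 1.34% with 3 to 5 and 1.13% with 6 to 8. They were 0.0225% with 20 or more. This is a description across CpGs, which are not independent replicates.

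**Figure D5:**
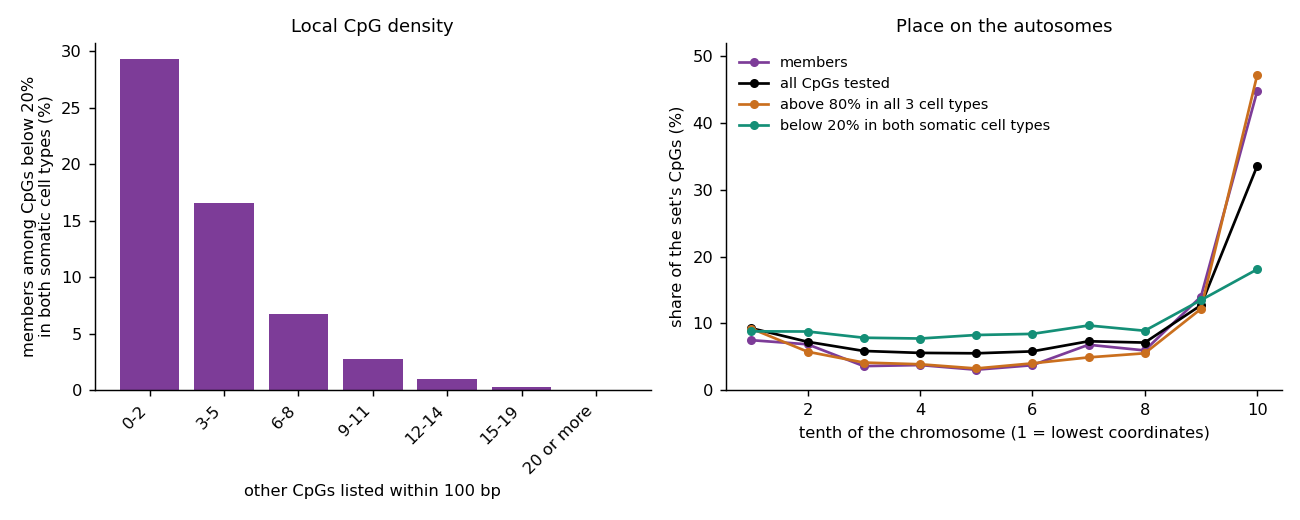
Left, the share of members in percent (vertical axis, from 0) among CpGs below 20% in both somatic cell types, by the number of other CpGs listed within 100 bp (horizontal axis), from 29.3% on the left to 0.0257% on the right. Right, the share of each set's CpGs in percent (vertical axis) in each of 10 equal parts of the chromosomes (horizontal axis, by position up to the last CpG listed). The last of them held 44.7% of members, 47.1% of CpGs above 80% in all 3 cell types, 33.5% of all CpGs tested and 18.1% of CpGs below 20% in both somatic cell types.

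Members were seldom near CpGs of the mirror set. Of the 11986 members, 18 (0.150%) had a mirror CpG within 1000 bp, against 10.9% of all CpGs tested and 1.42% of CpGs above 80% in all 3 cell types. CpGs methylated only in monocytes (26.0%) and only in fibroblasts (21.02%) were near mirror CpGs more often. Members and mirror CpGs are defined by opposite sperm levels, and the share is given as a description.

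Along the chromosomes, members were frequent near the ends with the highest coordinates, but so were other sets. The last of 10 equal parts of the autosomes held 44.7% of members and 33.5% of all CpGs tested, but also 47.1% of CpGs above 80% in all 3 cell types and 40.8% of the mirror set. The share of members in this last part was larger than that of CpGs tested on 20 of 29 autosomes. On chromosome 11 it was 79.5% against 53.4%, whereas on chromosome 7 it was 1.45% against 5.68%. Chromosome 11 had the most members (997) and the largest share of members among CpGs tested (1.14%), and chromosome 27 the fewest members (79) and the smallest share (0.315%). For the mirror set the order was reversed, with 1.84% on chromosome 11 and 7.33% on chromosome 27.

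Members were present in 965 of the 2529 windows of 1 Mb that held CpGs tested. The 329 windows with at least 10 members held 82.5% of members and 50.4% of all CpGs tested. The window with the most members, from 104000000 to 104999999 on chromosome 11, had 188 members among 8524 CpGs tested (2.21%) and 14 regions of at least 5. The next was on chromosome 29, from 49000000 to 49999999, with 179 members among 6328 CpGs tested (2.83%) and 11 such regions, one of them the region of 25 members described above. Chromosome 25, from 41000000 to 41999999, followed with 154 members among 8705 (1.77%). These windows were picked by their counts of members and are a description.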

How the data were processed

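RRBS libraries of 2 sperm, 2 monocyte and 2 fibroblast samples formed 3 groups after the labels' cell type. The authors kept MspI fragments of 40 to 290 bp and sequenced 75 bp paired-end reads. The submitters' processing notes name FastQC, Trim Galore 0.3.7, Bismark 0.14.3, Bowtie, methylKit and the UMD3.1 build. The deposited tables give, per CpG with both strands merged, the coverage, in counts of uniquely mapped reads, and the authors gave the share of methylated and unmethylated reads as a percent. Nothing was normalized. Methylated reads were recovered as the nearest whole number to coverage times percent.

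CpGs on chromosomes 1 to 29 covered by 5 to 500 reads in all 6 libraries were tested. The median coverage of members was 14 to 26 reads, so that a single percentage is coarse. Members and lists were chosen with earlier results of these data known. Sperm was compared with each somatic cell type by logistic regression on summed counts (likelihood-ratio test), adjusted over all CpGs tested. Scripts were tested on simulated data. Groups of libraries were compared by exact permutation tests. Each animal gave 1 library, and intervals cover counting error only, with CpGs taken as independent.

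The regions named were the 10 with the most members and the 5 with the most members among those in which every CpG tested was a member (1 region is in both lists). The alternatives were other limits, coverage minimums, gaps, distances and thresholds, limma on log2 ratios with 0.5 added, a replicate block, leaving out each library and, chosen after seeing the data, joining CpGs listed at neighbouring bases. The planned comparison of opposite strands could not be made on merged strands. Genes, gene lists and sequences were not analysed here, since no annotation of the UMD3.1 build was used. Python 3.11.15, numpy 2.4.6, scipy 1.17.1, pandas 2.3.3, matplotlib 3.10.9, R 4.3.3 and limma 3.58.1 were used.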

Additional observations from a re-analysis of the deposited data

Results flagged for a closer look

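Some CpGs past the same limits lay outside the autosomal CpGs described above. On chromosome X, 55 of 28511 CpGs tested were above 80% in sperm and below 20% in both somatic cell types (0.193%). On sequences not placed on a chromosome, 48 of 10073 were (0.477%). Bulls carry 1 X chromosome and cows a pair, of which one is inactivated in somatic cells, so that the X values of sperm and somatic libraries are not compared further. In addition, 1800 of the 173058 autosomal CpGs taken from positions that the files list at neighbouring bases passed the limits once joined (1.04%), and with them there were 13786 CpGs methylated only in sperm. These CpGs were left out of the members because no single listed position was covered in all 6 libraries.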

How the results depend on the processing

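The number of members was 7058 at a minimum coverage of 10, 1308 at 20 and 6474 with limits of 90 and 10%. It stayed within 1.5 times under the other settings, from 8562 when every single library had to pass the limits to 14674 with limits of 75 and 25%, and was 11776 to 12426 with 1 library of a cell type left out. The share of members in regions of at least 5 was 46.4%, 53.2% and 57.6% with gaps of at most 100, 300 and 2000 bp, 50.1% at a minimum coverage of 10, 52.3% with limits of 90 and 10%, and 57.9% with the joined CpGs, which was chosen after seeing the data. It was 54.6% to 55.9% with 1 library left out. The share of CpGs near members called higher in sperm was 19.2% at over 100 and up to 1000 bp, and 52.7% to 80.9% under the other settings with all libraries, against 3.58% of all autosomal CpGs in the reported fit. It was 61.0% to 68.5% with 1 library left out, in fits on summed reads that hold no spread between animals, while 2.76% to 3.44% of all CpGs were called. With the replicate number as a block it was 70.4%, against 73.4% without the block. The numbers name different animals, and deviations of same-numbered libraries correlated at 0.00342, 0.00168 and -0.00410, so that they do not pair the samples. The difference at CpGs that missed the coverage rule was 36.8 points at over 100 and up to 1000 bp and 76.8 to 77.9 points with 1 library left out. With a somatic library left out, the exact permutation p was 0.1, the smallest possible. With a sperm library left out, only 1 remained and no p is given. Of the CpGs chosen in one replicate, 69.0% met the limits in the other in the reverse direction, 69.6% at a minimum coverage of 10 and 54.6% with limits of 90 and 10%. The cause of these shifts was not tested. The alternatives for opposite strands were not run, since the files list merged strands.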
